A study of Mus musculus with 6 samples.

Results

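The 28 genes described here encode enzymes of cholesterol synthesis, the SREBP proteins with the partners that hold or release them, and proteins that take up, carry or remove sterol. They were chosen by name and matched by symbol to the Ensembl identifiers of the count tables, where all 28 were found among 54752 genes. Of these, 19 are enzymes of the route from acetyl-CoA to cholesterol, counted with Ggps1 on its isoprenoid side branch, 5 are SREBP regulators and 4 act in uptake, transport or removal. Not every enzyme of the pathway is among the 28.

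The data are RNA-seq libraries of the entire right hippocampus from 6 male wild-type C57BL/6 mice (C57BL/6 J in the methods), 14 weeks old by the labels, at 3 weeks after surgery. The 3 BCAS mice (bilateral carotid artery stenosis) carried a wire microcoil around each common carotid artery, with the narrower coil on the right, which lowers blood flow to the forebrain over weeks. The 3 Sham mice went through the same operation without coils. Each mouse gave 1 library, so the P values below reflect the spread between mice of a group.

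The libraries held 29652456 to 35607098 counts, of which the 28 genes took 0.177 to 0.184% in the Sham group and 0.146 to 0.158% in the BCAS group. Levels are given as CPM, the counts scaled to library size after TMM normalization, and comparisons of levels between genes use CPM per kilobase of exon. Differences are log2 fold changes of BCAS against Sham from edgeR's quasi-likelihood test over 18617 genes, with the standard error (SE) and the Benjamini-Hochberg adjusted P. A gene passed at an adjusted P under 0.05, and a differentially expressed gene (DEG) also needed an absolute log2 fold change above 1. In log2 CPM, libraries of the same group correlated at r = 0.978 to 0.988 across genes and libraries of different groups at r = 0.935 to 0.962, and BCAS mouse 3 lay farthest from the Sham mice.

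The brain makes almost all of its own cholesterol, because lipoproteins of the blood do not cross the blood-brain barrier. In the adult hippocampus astrocytes synthesize sterol and pass it to neurons on lipoprotein particles, and oligodendrocytes need it for myelin. SREBP transcription factors are held in the endoplasmic reticulum by SCAP and INSIG proteins while sterol is plentiful, and when sterol falls they are carried to the Golgi, cut and sent to the nucleus, where SREBP2 turns on the cholesterol enzymes. Oxysterols have the opposite role, since they bind INSIG proteins and also activate the nuclear receptor LXR, which drives sterol export.

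Promoters were read from the RefSeq promoter table of GRCm38.p6, the assembly also called mm10, as the 250 bases before each annotated start. The table held promoters of 24 of the 28 genes, with 34 starts in all, and Fdps, Fdft1, Sqle and Stard4 had no entry. Motifs were searched on both strands by their exact letters: CCAAT (the NF-Y box), GGGCGG (the Sp1 box), CACGTG (the E-box) and TCACNCCAC, a form of the sterol regulatory element to which SREBPs bind. A further motif, the LXR element read as GGTNA and GGTCA separated by any 5 bases, was added after the sequences had been read. CCAAT was present in 21 of 24 genes, against 37.5% of 27025 genes in the table and 39.5% of the 12920 tested genes in it. By starts, it was in 22 of 34 promoters (64.7%) against 33.8% of 32851. GGGCGG was likewise present in 21 of 24 genes, against 59.4% of the tested genes. CACGTG was found in 5 of 24 genes against 9.23% of the tested genes. TCACNCCAC was found in 1 of 24, Hmgcs1, against 1.23%. None of these matches is evidence of binding, and a missing match says only that these letters are not in the window.

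The promoters of 3 genes that fell and 3 that rose are shown 5′ to 3′ on the strand of the gene, to set the sequence of members with opposite changes side by side. The 3 that fell are examples picked from 18 and do not stand for the others. Capitals mark the NF-Y box, which reads ATTGG on the other strand, the sterol regulatory element and the LXR motif. Hmgcs1 (chr13:119690101-119690350, plus strand), Sc5d (chr9:42264301-42264550, minus strand) and Insig1 (chr5:28071162-28071362, plus strand, without 49 bases that overlap an annotated exon) are genes whose RNA was lower in BCAS mice. Ebp (chrX:8193513-8193762, minus strand), Srebf1 (chr11:60210472-60210721, minus strand, inside the gene) and Mylip (chr13:45389492-45389741, plus strand) are the 3 members whose RNA was higher. For Srebf1 the table lists 3 starts, of which the one shown lies farthest downstream and is the only one with the LXR motif.
Hmgcs1: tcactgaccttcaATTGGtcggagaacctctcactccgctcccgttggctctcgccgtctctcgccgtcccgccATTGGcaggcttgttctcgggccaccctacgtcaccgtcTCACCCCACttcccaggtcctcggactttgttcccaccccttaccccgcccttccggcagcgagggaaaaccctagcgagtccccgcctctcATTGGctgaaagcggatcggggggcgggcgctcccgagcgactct
Sc5d: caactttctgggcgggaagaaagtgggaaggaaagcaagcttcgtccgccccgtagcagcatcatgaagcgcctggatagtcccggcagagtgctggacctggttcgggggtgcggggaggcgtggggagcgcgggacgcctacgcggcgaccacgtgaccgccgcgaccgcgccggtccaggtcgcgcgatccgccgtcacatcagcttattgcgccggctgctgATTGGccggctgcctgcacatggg
Insig1: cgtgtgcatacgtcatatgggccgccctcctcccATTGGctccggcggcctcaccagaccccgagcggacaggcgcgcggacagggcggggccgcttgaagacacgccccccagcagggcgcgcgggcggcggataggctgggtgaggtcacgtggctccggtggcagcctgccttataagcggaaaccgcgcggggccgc
Ebp: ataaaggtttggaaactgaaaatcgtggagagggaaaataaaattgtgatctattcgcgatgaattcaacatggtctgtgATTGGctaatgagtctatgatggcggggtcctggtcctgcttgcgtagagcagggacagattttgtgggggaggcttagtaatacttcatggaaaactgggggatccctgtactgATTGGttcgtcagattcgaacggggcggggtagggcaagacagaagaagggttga
Srebf1: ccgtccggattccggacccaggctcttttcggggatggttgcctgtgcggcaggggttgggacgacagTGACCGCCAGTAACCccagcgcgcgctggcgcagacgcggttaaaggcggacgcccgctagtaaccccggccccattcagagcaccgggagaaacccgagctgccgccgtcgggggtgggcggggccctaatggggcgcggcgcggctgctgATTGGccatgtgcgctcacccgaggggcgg
Mylip: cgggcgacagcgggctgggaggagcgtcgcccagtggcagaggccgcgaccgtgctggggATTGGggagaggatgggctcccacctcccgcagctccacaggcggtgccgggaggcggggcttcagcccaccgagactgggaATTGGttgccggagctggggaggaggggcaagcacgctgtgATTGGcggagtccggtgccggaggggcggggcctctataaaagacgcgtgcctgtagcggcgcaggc

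Hmgcs1 held 3 CCAAT boxes, which began 237, 176 and 45 bases before the start, and its TCACCCCAC began 137 bases before it, between the boxes. Mylip, which moved in the opposite direction, also held 3 CCAAT boxes, at 190, 108 and 67 bases. Ebp held 2, at 170 and 55 bases, while Sc5d, Insig1 and the Srebf1 promoter shown held 1 each. The Srebf1 promoter shown was the only member promoter with the LXR motif, which is present in 58 of all 32851 promoters (0.177%). Because this motif was added after the member sequences had been read, its match in Srebf1 is a description and not a test. The counts are per gene and do not tell the 3 Srebf1 starts apart.

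The RNA of most sterol synthesis enzymes was lower in the hippocampus of BCAS mice, with 15 of 19 enzymes down and 1 up. Among the 28 genes, all of which passed the filter on low counts, 18 fell, 3 rose and 7 did not pass. Over all tested genes, 13.2% fell and 18% rose. The median log2 fold change was -0.41 for the 28 genes and 0.018 for all tested genes, whose quartiles were -0.24 and 0.40. The 3 BCAS mice lay below every Sham mouse for 21 of the 28 genes and above every Sham mouse for 3, against 22.7% and 25.3% of all tested genes. As DEGs, 2 members were higher, Srebf1 and Mylip, and 1 was lower, Fdps, against 8.47% and 0.999% of all tested genes. The summed level of neuronal markers in BCAS mice was 53.8 to 78.4% of the Sham mean, that of astrocyte markers 143 to 144% and that of microglial markers 535 to 866%. By histology of this model, the paper reports neuronal loss in the hippocampus and microglial activation on the side of the narrower coil. In the RNA of whole tissue, fewer cells of a type and less RNA per cell cannot be told apart, and the share of each was not tested. The 2 higher DEGs lie close to the threshold of 1, and without BCAS mouse 3 neither exceeded it.

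**Figure D1:**
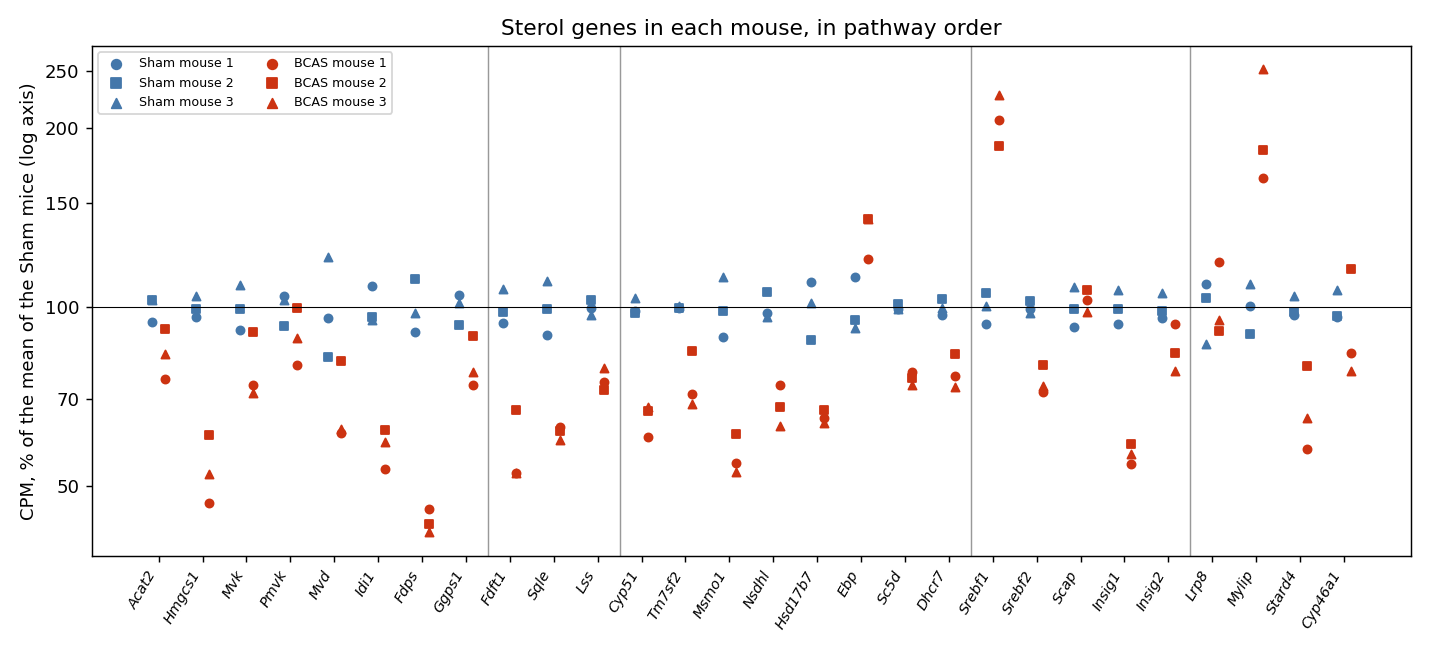
CPM of each of the 28 genes in each mouse as a percentage of the Sham mean, on a log axis, with genes in pathway order and grey lines between the 5 role groups. Points are single mice. Most BCAS points lie below 100%, while Ebp, Srebf1 and Mylip lie above it.

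The 19 enzymes were summed in each mouse to show the size of the shift. Their summed level was 230.4, 230.7 and 246.9 CPM per kb in Sham mice 1 to 3. In BCAS mice 1 to 3 it was 150.4, 174.9 and 156.1. No BCAS mouse reached the range of the Sham mice, and the BCAS mean (160.5 ± 12.9, SD, n = 3) was 68.0% of the Sham mean (236.0 ± 9.45, SD, n = 3). Hmgcs1 alone made up 21.3% of the sum in Sham mice and 16.7% in BCAS mice. BCAS mouse 2 had the highest sum of its group. Among the 18 genes that fell, the lowest BCAS value belonged to mouse 1 for 9 genes, to mouse 3 for 8 and to mouse 2 for 1.

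Upstream of squalene, the pathway builds isoprenoid units from acetyl-CoA. Of its 8 listed genes 5 fell, none rose, and the median log2 fold change was -0.45. Hmgcs1, the cytosolic HMG-CoA synthase, had 222.4, 229.6 and 241.9 CPM in Sham mice and 108.5, 141.3 and 121.4 CPM in BCAS mice. The groups were far apart, and the BCAS mean was 53.5% of the Sham mean (log2 fold change -0.90, SE 0.10, adjusted P = 0.000305). Idi1, which isomerizes isopentenyl diphosphate, had 29.3, 25.96 and 25.7 CPM in Sham mice and 14.5, 16.8 and 16.0 CPM in BCAS mice. It fell by 0.78 on the log2 scale (SE 0.11, adjusted P = 0.000955).

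Fdps, which makes farnesyl diphosphate, was barely counted. The Sham libraries held 33, 40 and 36 counts and the BCAS libraries 16, 14 and 14, or 0.973 to 1.20 CPM against 0.448 to 0.492 CPM. Its log2 fold change was -1.19 (SE 0.33, adjusted P = 0.0241). In the annotation, 26.7% of its exon bases are shared with the predicted gene Gm43738, and reads there were assigned to neither gene. Mvd, which decarboxylates mevalonate diphosphate, had 19.5, 16.8 and 24.7 CPM in Sham mice and 12.5, 16.5 and 12.7 CPM in BCAS mice (log2 fold change -0.55, SE 0.17, adjusted P = 0.0378). Its lowest Sham and highest BCAS values nearly met. Ggps1, which extends farnesyl to geranylgeranyl diphosphate for protein prenylation, fell by 0.31 on the log2 scale (SE 0.091, adjusted P = 0.0295).

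Acat2, which joins acetyl-CoA molecules at the head of the pathway, Mvk, the mevalonate kinase, and Pmvk, the next kinase, did not pass. Acat2 had 26.7, 29.2 and 29.1 CPM in Sham mice and 21.4, 26.04 and 23.7 CPM in BCAS mice, with a log2 fold change of -0.26 (95% interval -0.49 to -0.023, adjusted P = 0.0903). Its neighbour Acat3 is a near-identical copy, and reads that map to both were not counted, so the value is uncertain. For Mvk the change was -0.34 (95% interval -0.63 to -0.053, adjusted P = 0.0720), and for Pmvk it was -0.16 (95% interval -0.41 to 0.085, adjusted P = 0.294). Only Pmvk had overlapping groups among these 8 genes.

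The number of calls in this stretch depended on single mice. Hmgcs1 and Idi1 fell under all 14 alternatives of normalization, test, filter and left-out mouse. Fdps did not pass when any 1 mouse was left out (adjusted P 0.0557, 0.0885 and 0.0655 without Sham mouse 1, 2 or 3, and 0.0589, 0.0508 and 0.0675 without BCAS mouse 1, 2 or 3). Mvd and Ggps1 did not pass with library totals (adjusted P = 0.0589 and 0.0705), nor without Sham mouse 1 (0.0836 and 0.105), Sham mouse 3 (0.135 and 0.0952), BCAS mouse 1 (0.105 and 0.0894) or BCAS mouse 3 (0.107 and 0.0764). With the replicate number as a block, Fdps, Mvd and Ggps1 did not pass (adjusted P = 0.0670, 0.0851 and 0.0733). Acat2 and Mvk passed without BCAS mouse 2 (adjusted P = 0.0384 and 0.0173). With single mice left out, 2 to 6 of the 8 genes fell.

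Squalene and lanosterol are the first products committed to sterols, and all 3 of their enzymes fell, with a median log2 fold change of -0.70. Fdft1, the squalene synthase, had 82.7, 86.5 and 94.5 CPM in Sham mice and 46.3, 59.1 and 46.4 CPM in BCAS mice (log2 fold change -0.80, SE 0.11, adjusted P = 0.000871). It shares 18.3% of its exon bases with Ctsb on the opposite strand, where reads were left unassigned. Sqle, the squalene epoxidase, had 69.3, 76.5 and 85.2 CPM in Sham mice and 48.4, 47.7 and 46.0 CPM in BCAS mice. It fell by 0.70 on the log2 scale (SE 0.088, adjusted P = 0.000543), and the BCAS mice were closer together (SD 1.24 CPM) than the Sham mice (SD 7.97 CPM). Lss, which folds epoxidized squalene into lanosterol, fell by 0.41 (SE 0.083, adjusted P = 0.00686). All 3 enzymes fell under each of the 14 alternatives.

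Between lanosterol and cholesterol, 7 of 8 enzymes fell and 1 rose, with a median log2 fold change of -0.48. Msmo1, which oxidizes methyl groups of the sterol ring, had 98.6, 109.0 and 124.1 CPM in Sham mice and 60.6, 67.7 and 58.5 CPM in BCAS mice (log2 fold change -0.83, SE 0.10, adjusted P = 0.000444). Nsdhl and Hsd17b7 complete the removal of the groups that Msmo1 oxidizes, and they fell by 0.55 (SE 0.10, adjusted P = 0.00470) and by 0.61 (SE 0.11, adjusted P = 0.00324). Cyp51, the lanosterol demethylase, had 69.9, 69.3 and 73.4 CPM in Sham mice and 42.8, 47.5 and 48.2 CPM in BCAS mice. Its fall of 0.62 (SE 0.075, adjusted P = 0.000473) was large against the spread in either group.

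The other enzymes of this stretch that fell were Sc5d, Dhcr7 and Tm7sf2. Sc5d, a sterol desaturase, had 80.4, 82.0 and 80.3 CPM in Sham mice and 63.0, 61.5 and 59.8 CPM in BCAS mice (log2 fold change -0.40, SE 0.064, adjusted P = 0.00221), and its SDs of 0.932 and 1.59 CPM were small. Dhcr7, which reduces dehydrocholesterol to cholesterol, fell by 0.36 (SE 0.087, adjusted P = 0.0136), a call that was lost without Sham mouse 2 (adjusted P = 0.0573). Tm7sf2, the reductase that follows Cyp51, fell by 0.42 (SE 0.11, adjusted P = 0.0234). This gene shares 47.2% of its exon bases with Vps51 and Gm28374 in the annotation. Its call was lost without Sham mouse 1, 2 or 3 (adjusted P = 0.0647, 0.0706 and 0.0668) and without BCAS mouse 1 or 3 (0.0755 and 0.0704). It was also lost with the replicate number as a block (adjusted P = 0.0536).

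Ebp was the exception among the enzymes. This isomerase shifts a double bond in the sterol ring between the steps of Hsd17b7 and Sc5d, and it had 14.2, 12.1 and 11.7 CPM in Sham mice and 15.3, 17.9 and 17.8 CPM in BCAS mice. The groups did not overlap, and the BCAS mean was 134% of the Sham mean (log2 fold change 0.42, SE 0.13, adjusted P = 0.0317). Sham mouse 1 and BCAS mouse 1 lay close to each other. The rise did not pass without Sham mouse 2 or 3 (adjusted P = 0.109 and 0.108) or without BCAS mouse 2 or 3 (0.0693 and 0.0936). With the replicate number as a block it did not pass either (adjusted P = 0.0811).

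**Figure D2:**
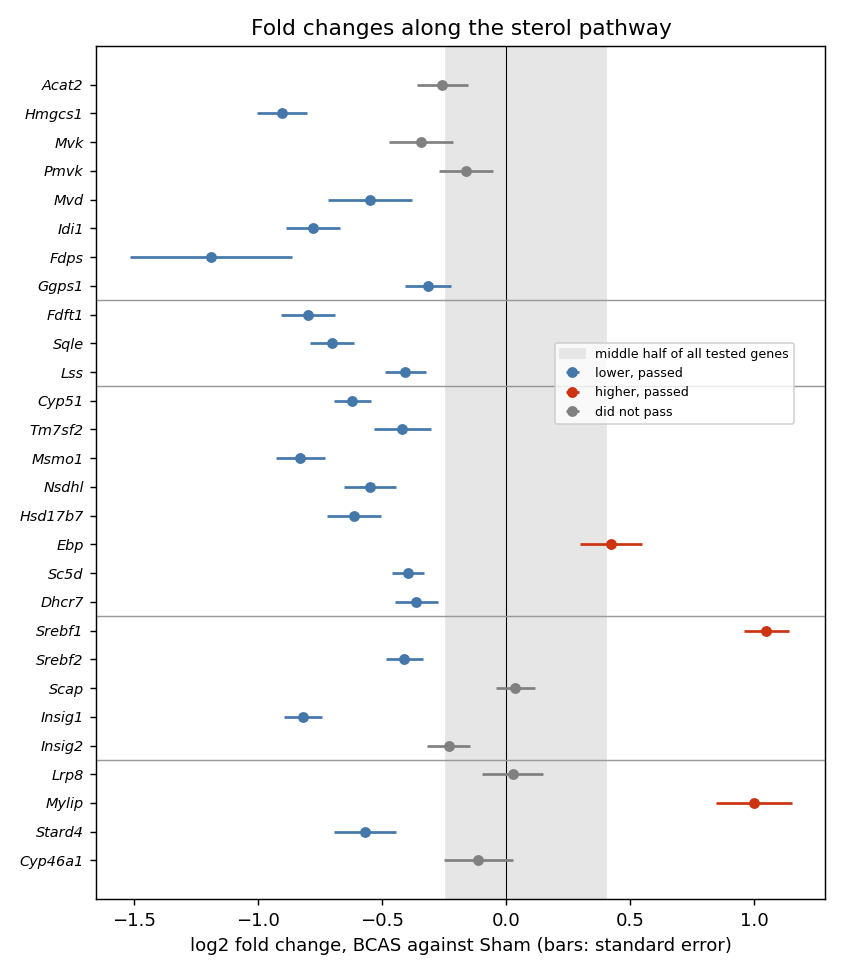
Log2 fold change of each of the 28 genes, BCAS against Sham, with its standard error as a bar and genes in pathway order from top to bottom. Blue points fell, red points rose and grey points did not pass, and the grey band spans the quartiles of all tested genes, -0.24 and 0.40. Of the 28 points 23 lie below 0.

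The SREBP genes moved in opposite directions. Srebf2, whose product drives the cholesterol enzymes, had 236.5, 243.9 and 232.4 CPM in Sham mice and 171.3, 189.9 and 175.2 CPM in BCAS mice, a fall of 0.41 on the log2 scale (SE 0.074, adjusted P = 0.00368). Srebf1, whose product mainly drives fatty acid synthesis and whose shorter form is a target of LXR, had 66.9, 75.7 and 71.9 CPM in Sham mice and 147.9, 133.6 and 162.9 CPM in BCAS mice. It rose to 207% of the Sham mean (log2 fold change 1.05, SE 0.091, adjusted P = 7.67e-05). Per kilobase, the ratio of Srebf1 to Srebf2 was 0.361, 0.396 and 0.395 in Sham mice and 1.10, 0.897 and 1.19 in BCAS mice. This ratio was computed after the values had been seen and was not tested.

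Insig1 and Insig2, which retain the SREBP complex in the endoplasmic reticulum, differed in the size of their change. Insig1, itself a target of SREBPs, had 78.9, 83.7 and 90.3 CPM in Sham mice and 45.9, 49.6 and 47.8 CPM in BCAS mice, which is 56.7% of the Sham mean (log2 fold change -0.82, SE 0.077, adjusted P = 0.000120). Insig2 had 63.2, 64.9 and 69.7 CPM in Sham mice and 61.8, 55.4 and 51.4 CPM in BCAS mice. It did not pass (log2 fold change -0.23, 95% interval -0.43 to -0.034, adjusted P = 0.0734), although it did without BCAS mouse 1 (adjusted P = 0.0359). Per kilobase, the ratio of Insig1 to Insig2 was 1.40, 1.45 and 1.45 in Sham mice and 0.833, 1.01 and 1.04 in BCAS mice. The difference between the changes of Insig1 and Insig2 was not tested. Scap, the escort of SREBPs, had overlapping values of 75.2 to 87.8 CPM in Sham mice and 79.8 to 86.8 CPM in BCAS mice (log2 fold change 0.037, 95% interval -0.14 to 0.22, adjusted P = 0.758). Its sign turned without Sham mouse 1 (-0.019) and without BCAS mouse 2 (-0.0012).

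**Figure D3:**
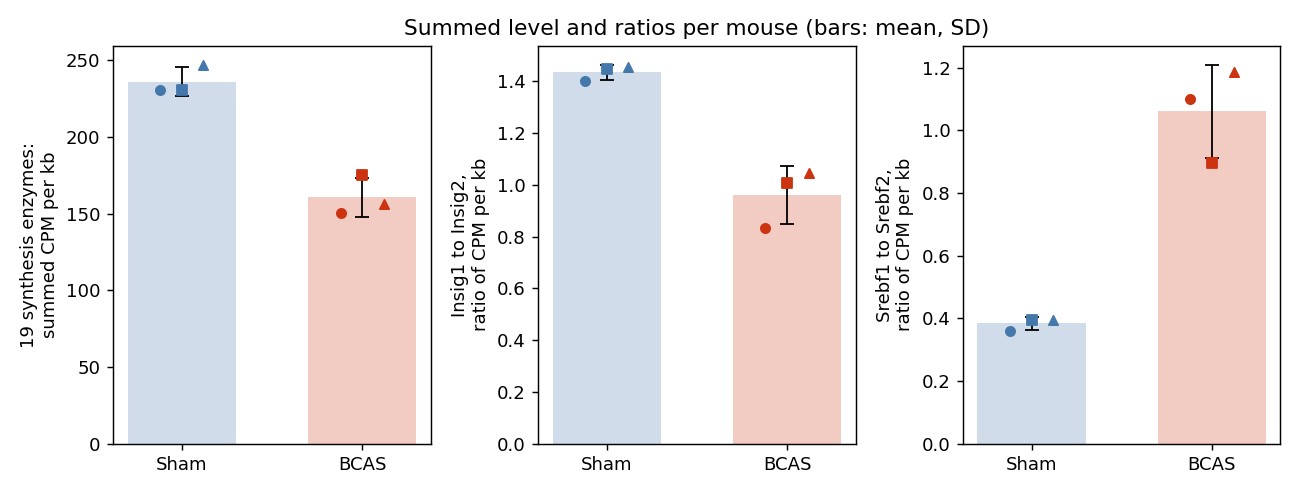
Summed CPM per kb of the 19 synthesis enzymes, ratio of Insig1 to Insig2 and ratio of Srebf1 to Srebf2 (both of CPM per kb) in each mouse. Bars are group means with the SD of 3 mice, and points are single mice. In BCAS mice the sum and the Insig ratio lie below, and the Srebf ratio above, those of all Sham mice.

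Of the 4 genes of uptake, transport and removal, 1 rose and 1 fell (25% each, against 18% and 13.2% of all tested genes). In so short a list these counts do not set the group apart. Mylip, also called Idol, is an LXR-induced ubiquitin ligase that marks lipoprotein receptors for degradation, and it had 31.1, 27.96 and 33.9 CPM in Sham mice and 51.1, 57.1 and 78.0 CPM in BCAS mice. Every BCAS mouse was above every Sham mouse (log2 fold change 1.00, SE 0.15, adjusted P = 0.00168), and BCAS mouse 3 was the highest. Without that mouse the change was lower (0.80), with the gene still past the test and no longer a DEG. Over the 14 alternatives of processing and left-out mouse its change ran from 0.80 to 1.12, on both sides of the threshold of 1. The call of Mylip as a DEG is therefore uncertain. Stard4, a cytosolic sterol carrier controlled by SREBP2, had 29.1, 29.5 and 31.3 CPM in Sham mice and 17.3, 23.8 and 19.5 CPM in BCAS mice (log2 fold change -0.57, SE 0.13, adjusted P = 0.00977).

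Lrp8, a lipoprotein and reelin receptor of neurons that Mylip can target, had 92.1, 87.5 and 73.2 CPM in Sham mice and 100.3, 77.0 and 80.2 CPM in BCAS mice. The groups overlapped (log2 fold change 0.027, 95% interval -0.25 to 0.30, adjusted P = 0.893), and the sign turned without Sham mouse 3 (-0.068) or BCAS mouse 1 (-0.10). Cyp46a1, the neuronal hydroxylase that turns cholesterol into an oxysterol able to leave the brain, had 148.4, 149.3 and 164.8 CPM in Sham mice. In BCAS mice it had 129.1, 178.8 and 120.4 CPM, with mouse 2 above all Sham mice and the other two below them (log2 fold change -0.11, 95% interval -0.43 to 0.20, adjusted P = 0.585). Without BCAS mouse 2, Cyp46a1 was lower and passed (log2 fold change -0.31, adjusted P = 0.0169).

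The order of levels within the pathway changed at the top. In Sham mice Hmgcs1 was first at 50.4 CPM per kb, with a range that overlapped that of Cyp46a1 at 46.9, followed by Srebf2 (33.1), Insig1 (27.3) and Fdft1 (20.8). Srebf2 and Insig1 were each separated from their neighbours, while Fdft1 overlapped with Insig2 at 18.99. In BCAS mice Cyp46a1 ranked first at 43.4, then Hmgcs1 (26.9), Srebf1 (26.3), Srebf2 (24.9) and Mylip (19.2). The ranges of Hmgcs1, Srebf1, Srebf2 and Mylip overlapped in BCAS mice, so ranks 2 to 5 were not separated there. The range of Mylip also overlapped that of Insig2 (16.2) at rank 6, so the rank of Mylip was not settled on either side. By the means, Srebf1 went from rank 13 to 3 and Mylip from 17 to 5. At the bottom, Lss (3.30), Tm7sf2 (3.20) and Fdps (0.255) kept ranks 26, 27 and 28 in both groups. The ranges of Lss and Tm7sf2 overlapped in both groups, so their order was not settled. Reads on shared exon bases, 47.2% of Tm7sf2 and 26.7% of Fdps, were not counted, nor were reads with several alignments. The levels of Tm7sf2 and Fdps per kilobase may therefore be too low, and their ranks are uncertain.

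Genes around the pathway were counted in lists of their own, to be read against the 18% of all tested genes that rose and the 13.2% that fell. In fatty acid synthesis, the other branch served by SREBPs, 6 of 15 genes rose and 2 fell, with a median log2 fold change of 0.12, or 0.20 with library totals. Gpam, which starts glycerolipid synthesis, rose from 41.1 ± 3.55 to 109.0 ± 12.1 CPM (SD, n = 3; log2 fold change 1.41, edgeR adjusted P = 3.49e-05), and Fads2, a fatty acid desaturase, rose by 0.52 (adjusted P = 0.00115). Elovl6, a fatty acid elongase, and Acss2, which makes cytosolic acetyl-CoA, fell by 0.44 (adjusted P = 0.00209) and by 0.42 (adjusted P = 0.00542). The falls, 13.3% of the list, were near the share over all tested genes.

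Among oxysterol and LXR genes, 7 of 11 tested genes rose (63.6%, against 18% of all tested genes) and none fell in edgeR, with a median of 0.48. None fell at an unadjusted P under 0.05 or with DESeq2 or limma-voom. Hsd3b7, also on that list, was not tested and had 0 counts in all 6 libraries, which allows up to 0.0994 CPM. Ch25h, a hydroxylase that makes an oxysterol from cholesterol, rose from 0.324, 0.538 and 0.641 CPM in Sham mice to 10.8, 15.4 and 26.9 CPM in BCAS mice (log2 fold change 5.13, SE 0.41, edgeR adjusted P = 4.93e-05). Abca1, the LXR-induced exporter of cholesterol, rose from 49.5 ± 3.74 to 252.6 ± 54.5 CPM (SD, n = 3; log2 fold change 2.35, adjusted P = 2.02e-05). With any mouse but BCAS mouse 2 left out, the rises numbered 5.

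In the list for uptake, lysosomal release, esterification and transport, 6 of 14 genes rose (42.9%, against 18% of all tested genes) and 1 fell (7.14% against 13.2%), with a median of 0.30, or 0.20 without BCAS mouse 1. Npc2, which hands cholesterol out of the lysosome, rose by 2.08 on the log2 scale (edgeR adjusted P = 3.21e-05), and Lipa, the lysosomal lipase that frees cholesterol from its esters, rose by 1.19 (adjusted P = 4.93e-05). Nceh1, a neutral cholesterol ester hydrolase, fell by 0.35 (adjusted P = 0.0227), but not past the test without Sham mouse 1, 2 or 3 or BCAS mouse 1 or 3 (adjusted P 0.0533 to 0.0878).

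Of 9 tested genes of SREBP processing and turnover 1 rose (11.1%) and 2 fell (22.2%), against 18% and 13.2% of all tested genes. The median was 0.038, and its sign turned without Sham mouse 2 (-0.0024) or BCAS mouse 2 (-0.0023). These were Erlin2 (0.33, edgeR adjusted P = 0.0414), which binds SREBP complexes in the membrane, Fbxw7 (-0.46, adjusted P = 0.0131), which marks nuclear SREBPs for degradation, and Sec23a (-0.34, adjusted P = 0.0178), a subunit of the vesicle coat that carries them to the Golgi. The call of Erlin2 was lost with the replicate block and when any mouse but BCAS mouse 2 was left out (adjusted P up to 0.143). That of Fbxw7 was lost without Sham mouse 3 (0.0532), and that of Sec23a without any 1 of the Sham mice (0.0521 to 0.0649). Of 14 genes of the isoprenoid branches, which use farnesyl and geranylgeranyl diphosphate, 1 rose (Zmpste24, 0.46, adjusted P = 0.00823) and 1 fell (Rabggtb, -0.26, adjusted P = 0.0496), the latter lost when any 1 mouse was left out. With single mice left out, 1 to 2 of these 14 genes rose and 0 to 3 fell, the most rises without Sham mouse 2 or BCAS mouse 1 and the most falls without BCAS mouse 2. Of 7 tested accessory proteins, which pass electrons to or hold the sterol enzymes, 1 rose (Cyb5r3, 0.54, adjusted P = 0.00154) and 3 fell, which is 14.3% and 42.9% of this short list, among the falls Erg28 (-0.35, adjusted P = 0.0185), the scaffold of the Msmo1 complex, and Pgrmc1 (-0.31, adjusted P = 0.0436). Without Sham mouse 2 or 3, or with the replicate block, none of these accessory proteins fell. On all mice without the block, edgeR, DESeq2 and limma-voom gave 3. The call of Pgrmc1 was also lost with library totals, and without Sham mouse 1 or BCAS mouse 1 or 3. The median of the accessory proteins was -0.051, and 0.023 with library totals, -0.11 without Sham mouse 1 and -0.13 without BCAS mouse 2.

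**Figure D4:**
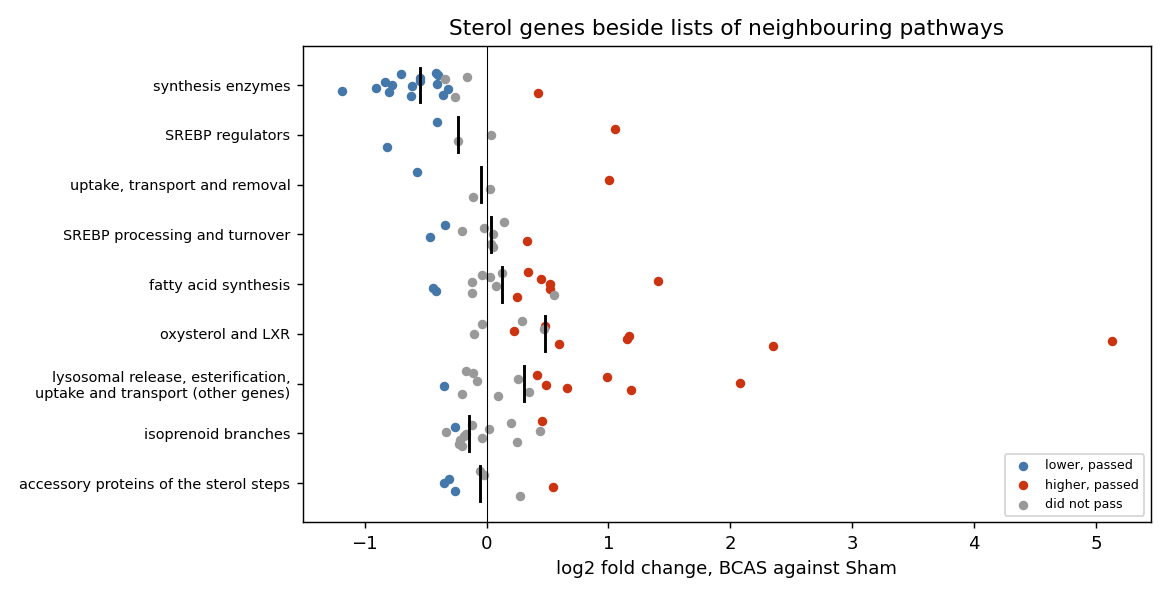
Log2 fold change of every tested gene, BCAS against Sham, in the sterol groups and in lists of neighbouring pathways. Each point is a gene (blue fell, red rose, grey did not pass) and black bars are list medians, from -0.55 for the 19 synthesis enzymes to 0.48 for oxysterol and LXR genes.

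Markers of some cell types also differed between the groups. The summed level of 8 neuronal markers was 53.8 to 78.4% of the Sham mean in BCAS mice and 96.2 to 104% in Sham mice, and 7 of the 8 fell, from Snap25 (-0.70) to Map2, which did not pass (-0.34). Without Sham mouse 1, 2 or 3, 4 of the 8 neuronal markers fell. The 8 markers of hippocampal fields stood at 56.3 to 73.1%, and 4 fell, with Fibcd1 lowest (-1.91) and C1ql2 highest (-0.055). The 8 astrocyte markers stood at 143 to 144%, and 7 rose, from Aqp4 (1.67) to Aldoc, which did not pass (0.26). The 8 microglial markers stood at 535 to 866% and all rose, with P2ry12 lowest (1.54) and Fcrls highest (3.54). Neuronal markers were thus lower, and those of astrocytes and microglia higher, than in any Sham mouse.

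The other marker lists were counted in the same way. The 8 endothelial markers stood at 129 to 143% of the Sham mean, and 5 rose, with Cdh5 highest (0.98) and Ly6c1, which did not pass, lowest (0.20). For oligodendrocyte precursors the range was 108 to 131%, with 2 of 6 markers higher, from Cspg4 (0.73) to Neu4, which did not pass (0.065). Oligodendrocyte markers, of cells that use much cholesterol for myelin, stood at 102 to 153% in BCAS mice and 89.1 to 109% in Sham mice, and 0 of 8 passed in edgeR (1 at an unadjusted P under 0.05). With DESeq2, with every gene of at least 1 count, or without BCAS mouse 2, 1 of them passed as higher. The values ran from -0.18 for Opalin to 0.42 for Mbp. Choroid plexus markers ran from 70.7 to 4112 CPM in the Sham group and from 48.2 to 5976 CPM in BCAS mice, a wide spread between mice within both groups (log2 fold changes from 0.64 for Kl to 1.32 for Kcnj13, none past the test with edgeR, DESeq2 or limma-voom or at an unadjusted P under 0.05). No marker was at 0 in any group. Mitochondrial genes took 6.90 to 6.99% of the Sham counts and 6.02 to 6.56% of the BCAS counts. The part of these shifts in the sterol results was not tested.

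**Figure D5:**
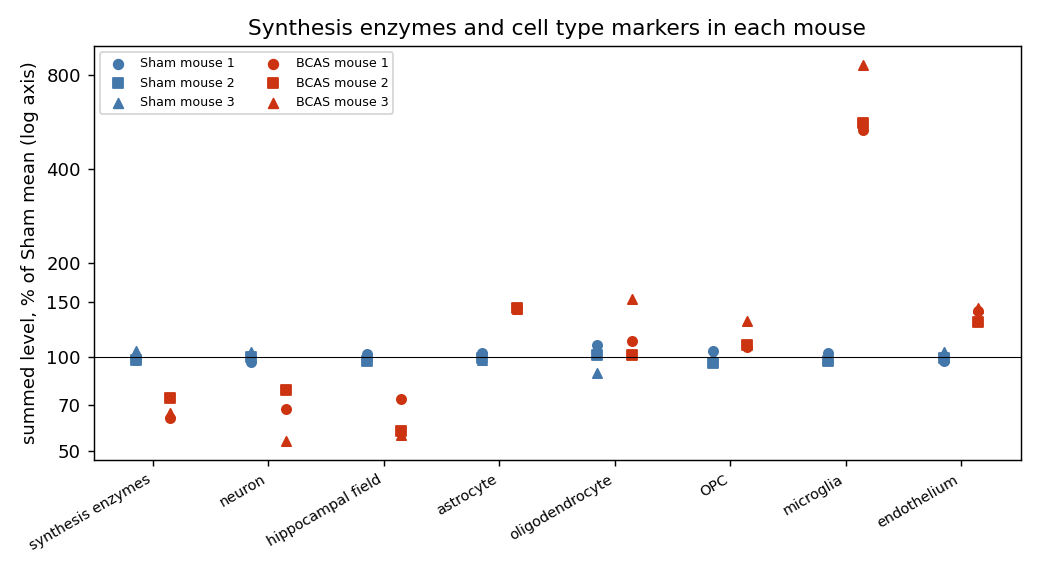
Summed level of the 19 synthesis enzymes (CPM per kb) and of marker lists (CPM) in each mouse, as a percentage of the Sham mean on a log axis. Points are single mice, and choroid plexus markers are not drawn. In BCAS mice the enzymes stood at 63.7 to 74.1% and neuronal markers at 53.8 to 78.4%, while astrocyte markers stood at 143 to 144%.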

How the data were processed

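Right hippocampi of 3 Sham and 3 BCAS mice were grouped and numbered by their sample titles. The columns inside the BCAS tables carry the numbers 2 to 4 where the titles have 1 to 3. The authors trimmed reads with Trim Galore, aligned them to mm10 with HISAT2, and deposited raw counts per gene. File headers name featureCounts 2.0.3 with GENCODE M20, whereas the methods name version 1.6.3 and RefSeq genes. Mates were counted separately, strand was ignored, and reads with several alignments or on exons shared by 2 genes were not counted, which lowers genes with such exons. Symbols matched 54723 of 54752 genes.

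Counts were filtered (filterByExpr), TMM-normalized (factors 0.964 to 0.984 in Sham, 1.01 to 1.05 in BCAS) and tested two-sided with edgeR 4.0.16 in R 4.3.3, without covariates. DEG thresholds follow the study, which used DESeq2. The common biological coefficient of variation was 0.161. A floor of 3 counts equals 0.0874 to 0.0994 CPM, for counting error only. An exact permutation test of 3 against 3 mice cannot go below P = 0.1, so none is given. Steps were tested on simulated data.

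The members, lists and tests were chosen with earlier results of these data known. Named are all 28 members and, of each further list, up to 2 largest rises and 2 largest falls that passed with a mean of at least 1 CPM. Of marker lists, the genes with the highest and lowest change are named. Spring1 and Faxdc2 were not matched by symbol. Alternatives used DESeq2 1.42.0, limma-voom 3.58.1, RLE factors, library totals, other count filters, halved counts, a replicate block and leaving out each mouse.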

Additional observations from a re-analysis of the deposited data

How the results depend on the processing

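Of the 18 genes that fell, 13 passed under each of the 14 alternatives, and of the 3 that rose 2 did, Srebf1 and Mylip. No passed call changed sign. With library totals the median log2 fold change of the 28 genes was -0.33 and that of all genes 0.094, against -0.41 and 0.018 with TMM. Higher DEGs numbered 1 in place of 2 with RLE factors, DESeq2, limma-voom, every gene with at least 1 count and the replicate block. By the numbers of the titles, which differ from those inside the BCAS tables, same-numbered mice did not deviate together (r = 0.036, -0.31 and -0.16). With the replicate number as a block, 2 genes rose, 14 fell, the median was -0.41 and no member was a lower DEG in edgeR (1 at an unadjusted P under 0.05, and 1 with DESeq2 or limma-voom on the unblocked design). Leaving out each mouse gave 2 to 3 rises and 14 to 20 falls, 0 to 2 higher DEGs and 0 to 1 lower DEGs (1 to 2 at an unadjusted P under 0.05), a median of -0.47 to -0.39 and a log2 ratio of the summed enzymes of -0.62 to -0.51, against -0.56 with all mice. Higher DEGs numbered 0 without BCAS mouse 3 (0 at an unadjusted P under 0.05). Scap (-0.019 to 0.094) and Lrp8 (-0.10 to 0.091), which did not pass, each changed sign without 2 of the mice. With 3 mice a group several calls are uncertain. Among the 28 genes Fdps, of low count, lost its call most often, under 7 of the 14 alternatives. The cause of these shifts was not tested.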
